A study of Mus musculus with 6 samples.

Results

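The 36 genes described here mark macrophages and related myeloid cells, and they were followed in subcutaneous inguinal white fat of mice with and without a deletion of Tfg aimed at adipocytes. The genes were taken by name, each read by a probe set that the array annotation pairs with exactly 1 gene symbol. A gene with several probe sets is represented by the one with the highest mean. All 36 were measured, among 30702 genes named in this way and 65956 probe sets in all. Whole-transcript arrays gave 1 log2 signal per probe set and mouse. All 6 mice were male C57BL/6 animals aged 2 months with floxed Tfg alleles (TFG f/f). The 3 WT-labelled mice, wild type per their genotype label, had no Cre, and the 3 KO-labelled mice also carried Adipoq-ERT2Cre, a Cre recombinase that the adiponectin promoter drives and tamoxifen activates. Both groups received tamoxifen by intraperitoneal injection for 5 days, and RNA was taken 2 weeks later. The Cre acts in adipocytes, so macrophages in this fat are not its intended target. Each array is 1 mouse, so each group mean rests on 3 mice. The p-values weigh the difference between groups against a spread between mice that is estimated with help from all probe sets.

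Fat tissue holds resident macrophages beside adipocytes, vessels, fibroblasts and lymphocytes. They arise under the transcription factor PU.1 and depend on signals through the CSF1 receptor. They clear dying cells and debris through scavenger receptors, Fc receptors and complement, and they take up lipid released by fat cells. Monocytes that enter from the blood carry the chemokine receptor CCR2. In obesity, macrophages with TREM2 and CD9 gather around dying adipocytes.

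Promoter sequences of 8 members are shown because results below turn on these genes: the 5 that rose, a C1q chain gene that did not pass beside its neighbour that did, and 2 that fell. RefSeq (GRCm38.p6) gave a window of 300 bases around the start, 250 before it and 50 after it, for 26 of the 36 members. Each is printed 5′ to 3′ along the gene. Capitals mark GAGGAA or its reverse complement TTCCTC, letters found in many binding sites of PU.1, and matches on opposite strands cannot share bases.
Lyz2, chr10:117282223-117282522, minus strand: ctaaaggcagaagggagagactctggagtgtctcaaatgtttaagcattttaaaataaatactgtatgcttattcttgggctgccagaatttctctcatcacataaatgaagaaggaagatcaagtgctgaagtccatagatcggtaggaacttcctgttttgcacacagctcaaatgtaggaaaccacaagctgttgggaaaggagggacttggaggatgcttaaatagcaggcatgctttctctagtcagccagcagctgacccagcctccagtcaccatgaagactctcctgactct
Mertk, chr2:128698665-128698964, plus strand: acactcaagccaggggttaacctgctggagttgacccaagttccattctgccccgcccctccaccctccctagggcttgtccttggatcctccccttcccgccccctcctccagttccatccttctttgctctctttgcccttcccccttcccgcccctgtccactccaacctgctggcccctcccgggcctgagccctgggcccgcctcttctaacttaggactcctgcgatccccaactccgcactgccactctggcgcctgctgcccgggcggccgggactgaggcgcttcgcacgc
Fcer1g, chr1:171234300-171234599, minus strand: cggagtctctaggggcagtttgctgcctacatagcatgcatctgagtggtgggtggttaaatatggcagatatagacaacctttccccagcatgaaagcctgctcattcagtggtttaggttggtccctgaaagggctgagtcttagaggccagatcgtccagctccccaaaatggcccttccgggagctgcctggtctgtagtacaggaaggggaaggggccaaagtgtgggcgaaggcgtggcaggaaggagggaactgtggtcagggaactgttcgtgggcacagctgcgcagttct
Fcgr3, chr1:171059354-171059653, minus strand: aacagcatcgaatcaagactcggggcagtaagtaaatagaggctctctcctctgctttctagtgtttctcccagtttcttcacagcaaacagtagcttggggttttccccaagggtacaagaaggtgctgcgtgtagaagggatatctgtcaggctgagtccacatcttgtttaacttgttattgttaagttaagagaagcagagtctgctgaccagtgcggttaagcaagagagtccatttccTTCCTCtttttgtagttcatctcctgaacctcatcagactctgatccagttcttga
C1qb, chr4:136886151-136886450, minus strand: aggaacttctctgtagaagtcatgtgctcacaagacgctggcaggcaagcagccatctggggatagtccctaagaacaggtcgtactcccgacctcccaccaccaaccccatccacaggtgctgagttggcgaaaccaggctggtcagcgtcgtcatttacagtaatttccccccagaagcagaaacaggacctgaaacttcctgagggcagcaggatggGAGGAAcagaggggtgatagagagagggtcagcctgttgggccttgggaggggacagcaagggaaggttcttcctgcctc
C1qc, chr4:136892865-136893164, minus strand: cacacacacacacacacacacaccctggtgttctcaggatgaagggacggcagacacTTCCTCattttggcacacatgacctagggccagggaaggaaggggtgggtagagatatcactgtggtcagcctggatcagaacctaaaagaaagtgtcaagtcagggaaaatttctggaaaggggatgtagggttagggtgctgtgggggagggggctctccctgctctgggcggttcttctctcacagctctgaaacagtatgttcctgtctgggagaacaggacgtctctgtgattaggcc
Itgam, chr7:128062390-128062689, plus strand: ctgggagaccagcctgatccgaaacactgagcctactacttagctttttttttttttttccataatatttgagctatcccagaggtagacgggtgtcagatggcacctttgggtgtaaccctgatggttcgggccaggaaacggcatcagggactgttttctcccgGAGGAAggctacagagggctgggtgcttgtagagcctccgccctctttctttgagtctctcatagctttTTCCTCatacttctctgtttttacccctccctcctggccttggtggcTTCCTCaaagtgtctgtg
Cx3cr1, chr9:120068247-120068546, minus strand: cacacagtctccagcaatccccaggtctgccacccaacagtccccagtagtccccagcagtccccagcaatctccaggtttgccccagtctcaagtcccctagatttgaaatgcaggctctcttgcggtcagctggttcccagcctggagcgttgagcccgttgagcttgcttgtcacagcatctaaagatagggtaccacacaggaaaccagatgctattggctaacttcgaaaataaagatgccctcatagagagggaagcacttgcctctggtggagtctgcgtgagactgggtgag
The string was present on either strand in 14 of the 26 windows of members, and in 28.3% of the 27025 genes with a window. It was found in 2 of the 5 members that rose and in 2 of the 4 that fell. The Itgam window held 3 matches, those of Fcgr3, C1qb and C1qc 1 each, and those of Lyz2, Mertk, Fcer1g and Cx3cr1 none. A match is a string of letters and not a site, and its absence says only that these letters are not in this window.

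The targeted gene Tfg read 7.97, 7.94 and 7.91 on the WT-labelled arrays and 7.99, 8.21 and 8.03 on the KO-labelled arrays, so it was not lower where the label says KO (difference 0.14 ± 0.11 (SE), limma adjusted p = 0.345). Which exons its probe set reads was not analysed here, so this checks the labels only in part. Directions below are those of the labels. Medians of WT-labelled arrays ran from 6.96 to 7.02, those of KO-labelled arrays from 6.47 to 6.76. KO 2 stood apart, with the lowest median and correlations of 0.960 and 0.965 with KO 1 and KO 3. Over all probe sets the median change was -0.37, and over 1082 olfactory receptor genes, which fat is not known to use, it was -0.82. The mean of 13 housekeeping genes was 0.90 higher on the KO-labelled arrays. No detection calls were available. WT-labelled means of the olfactory receptor genes lay between 5.92 (5th percentile) and 9.84 (95th percentile), and the WT-labelled means of all 36 members fell inside that span. Signals of that size do not by themselves show a transcript above background.

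The macrophage and myeloid genes did not move as a block. limma called 5 of the 36 higher on the KO-labelled arrays (Lyz2, Mertk, Fcgr3, Fcer1g and C1qb) and 4 lower (Cx3cr1, Ccr2, Marco and Itgam), while 27 did not pass. The rises were thus 13.9% of the members and the falls 11.1%. Among named protein-coding genes these shares were close to that, at 10.7% and 10.2%. For all probe sets they were 5.32% and 15.6%. The members' median change was 0.00 on the log2 scale, with 17 of 36 above 0 and 27 of 36 above the median change of all probe sets. For the protein-coding genes it was -0.18, with 6905 of 19217 above 0 and 13155 above the median change of all probe sets. All 3 KO-labelled values lay above all 3 WT-labelled values for 9 members, against 11.1% of probe sets, and below them for 9 members, against 44.9%. Of the 19217 protein-coding genes, 4482 lay above and 7875 below without overlap. In bulk tissue, fewer cells of a type and less RNA per cell cannot be told apart. The calls rest on the full set of arrays: limma called no member, and 0 probe sets in all, when any of the WT-labelled arrays or KO 3 was left out, although 13 (WT 1 left out), 12 (WT 2), 10 (WT 3) and 13 (KO 3) members then had an unadjusted p under 0.05. Without KO 2 it called Lyz2, Mertk and Cx3cr1, and without KO 1 it called Lyz2, Mertk, Fcgr3, Fcer1g, C1qb, C1qa and Ccr2.

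**Figure D1:**
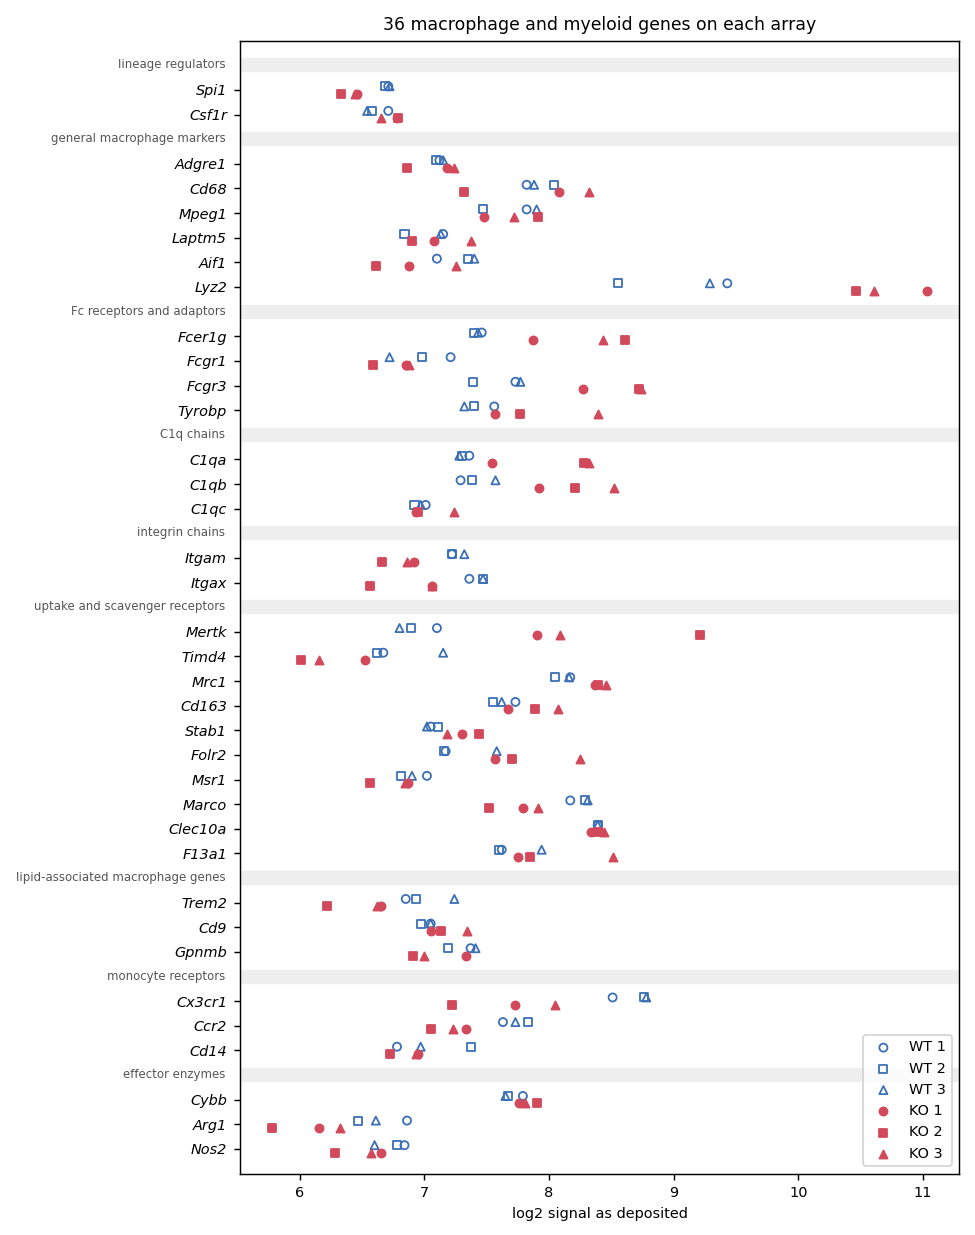
Log2 signal as deposited (x axis) of the 36 genes on each of the 6 arrays, grouped by role, with open symbols for WT and filled symbols for KO, 1 symbol shape per replicate number. Lyz2, Mertk, Fcgr3, Fcer1g and C1qb have every KO value to the right of every WT value, and Cx3cr1, Ccr2, Marco and Itgam every KO value to the left.

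The genes that define the lineage and the cell type showed no shift that passed, with 0 of 2 lineage genes and, Lyz2 aside, 0 of 5 general markers called, against 1 and 0 at an unadjusted p under 0.05. Spi1, which encodes PU.1, read 6.71, 6.68 and 6.72 on the WT-labelled arrays and 6.46, 6.33 and 6.44 on the KO-labelled arrays. The groups did not overlap, but the change of -0.29 ± 0.10 (SE) did not pass (adjusted p = 0.0759) and lay 0.07 above the change of the median probe set. Csf1r, the receptor for CSF1 and interleukin 34, read 6.71, 6.58 and 6.54 against 6.78, 6.79 and 6.65, with overlapping groups and a change of 0.13 ± 0.11 (SE). Adgre1, an adhesion receptor gene widely used to mark mouse macrophages, read 7.12, 7.09 and 7.15 against 7.18, 6.86 and 7.24. Its change of -0.03 ± 0.14 (SE) was small beside the spread of the KO-labelled arrays, where KO 2 was the low one. Cd68, a lysosomal membrane protein gene, read 7.82, 8.04 and 7.88 against 8.08, 7.32 and 8.32, so KO 2 lay below and the other KO-labelled arrays above every WT-labelled array. Its change was -0.01 ± 0.27 (SE), and 0.29 without KO 2. The other general markers also overlapped between the groups: the pore-forming protein gene Mpeg1 (change -0.03 ± 0.18), the lysosomal gene Laptm5 (0.08 ± 0.17) and Aif1, which encodes IBA1 (-0.37 ± 0.19).

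Lyz2, the lysozyme gene of macrophages and neutrophils, showed the largest rise among the members on all 6 arrays, although Mertk was above it without KO 1 (1.72 against 1.45) and without WT 2 (1.45 against 1.34). It read 9.43, 8.55 and 9.29 on the WT-labelled arrays and 11.03, 10.46 and 10.61 on the KO-labelled arrays. Every KO-labelled array was thus higher than every WT-labelled one, and WT 2 was the lowest. The means were 9.09 ± 0.47 (SD, n = 3) and 10.70 ± 0.30 (SD, n = 3), a rise of 1.61 ± 0.28 (SE), or 3.05-fold (adjusted p = 0.0354). Leaving out 1 array at a time gave changes between 1.34 and 1.78. The neighbouring gene Lyz1, chosen after its values were seen, encodes a nearly identical lysozyme. It read 8.48, 8.09 and 9 against 9.65, 8.02 and 8.95 and overlapped between the groups. Binding of transcripts of 1 gene to probes for the other cannot be told apart here, so the Lyz2 level is uncertain.

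Fc receptor genes split between chains. Fcgr3, the activating low-affinity receptor for immunoglobulin G, read 7.73, 7.39 and 7.77 on the WT-labelled arrays and 8.27, 8.72 and 8.74 on the KO-labelled arrays. It rose by 0.95 ± 0.19 (SE), or 1.93-fold (adjusted p = 0.0361), without overlap. Fcer1g encodes the common gamma chain through which that receptor signals, and it read 7.46, 7.40 and 7.43 against 7.87, 8.61 and 8.43. The WT-labelled values were tight, at 7.43 ± 0.03 (SD, n = 3), and the KO-labelled ones spread more, at 8.30 ± 0.39 (SD, n = 3). Fcer1g rose by 0.87 ± 0.21 (SE), or 1.83-fold (adjusted p = 0.0410). Tyrobp, which encodes the adaptor DAP12 used by TREM2, was 0.48 ± 0.23 (SE) higher without passing (adjusted p = 0.140), with KO 3 at 8.39 well above KO 1 at 7.57 and KO 2 at 7.77. The high-affinity receptor gene Fcgr1 was -0.20 ± 0.17 (SE) and overlapped between the groups. The inhibitory receptor gene Fcgr2b, whose outer part closely resembles that of Fcgr3, read 6.97, 6.95 and 7.04 against 7.06, 7.11 and 7.20, a change of 0.14 ± 0.10 (SE) that did not pass.

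The 3 chains of complement C1q, which opens the classical pathway and coats dying cells, gave unequal changes although their genes lie side by side and the protein needs all of them. C1qb read 7.29, 7.38 and 7.57 on the WT-labelled arrays and 7.92, 8.21 and 8.52 on the KO-labelled arrays, and it rose by 0.80 ± 0.18 (SE), or 1.75-fold (adjusted p = 0.0399). C1qa read 7.36, 7.30 and 7.28 against 7.54, 8.28 and 8.32, so the groups did not overlap, yet KO 1 stood close to the WT-labelled values. Its change of 0.73 ± 0.23 (SE) did not pass (adjusted p = 0.0605), but passed without KO 1. C1qc read 7.01, 6.92 and 6.97 against 6.93, 6.95 and 7.24, with overlap and a change of 0.07 ± 0.13 (SE). Whether the change differs between the chains was not tested.

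Both integrin alpha chain genes had all KO-labelled values below all WT-labelled ones, as did 44.9% of all probe sets, and 1 of them passed. Itgam, the CD11b chain of complement receptor 3, read 7.22, 7.22 and 7.32 on the WT-labelled arrays and 6.92, 6.66 and 6.86 on the KO-labelled arrays. It fell by 0.44 on the log2 scale with an SE of 0.12 (adjusted p = 0.0490), with the largest adjusted p of the 9 calls and 0.07 more than the fall of the median probe set. Itgax, the CD11c chain of macrophages and dendritic cells, had a change of -0.54 ± 0.17 (SE), with no overlap, and did not pass (adjusted p = 0.0611). Itgb2, the beta chain both share, read 7.19, 7.18 and 7.20 against 7.15, 7.06 and 7.17, a change of -0.06 ± 0.10 (SE).

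Among 10 genes of uptake and scavenger functions 1 rose and 1 fell. Mertk encodes a receptor tyrosine kinase with which macrophages engulf apoptotic cells, and it read 7.10, 6.89 and 6.80 on the WT-labelled arrays and 7.90, 9.21 and 8.09 on the KO-labelled arrays. All KO-labelled values were higher, and KO 2 was the highest. Mertk rose by 1.47 ± 0.35 (SE), or 2.77-fold (adjusted p = 0.0420). Without KO 2, which also gave the highest adipocyte and muscle signals, the rise was 1.07 and limma still called it. Marco, a scavenger receptor for bacteria and particles, read 8.17, 8.29 and 8.31 against 7.79, 7.52 and 7.91 and fell by 0.52 (SE 0.14, adjusted p = 0.0486), or 0.15 more than the median probe set.

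The other 8 uptake and scavenger genes did not pass, and their changes ran from -0.59 to 0.54. Mrc1, which encodes the mannose receptor CD206, read 8.17, 8.05 and 8.16 against 8.37, 8.39 and 8.46, tight in both groups and without overlap. Its change was 0.28 ± 0.10 (SE) (adjusted p = 0.0856), and it passed when the arrays were quantile normalized or centred on their medians. The folate receptor gene Folr2 was 0.54 ± 0.22 (SE) higher with overlap (adjusted p = 0.109). The hemoglobin scavenger receptor gene Cd163 (0.24 ± 0.14), Stab1 (0.25 ± 0.12) and F13a1, which encodes a clotting factor subunit (0.32 ± 0.23), did not pass either. KO 3 was the highest of all 6 arrays for Mrc1, Folr2, Cd163 and F13a1, and KO 2 for Stab1. Timd4, a phosphatidylserine receptor of long-lived resident macrophages, read 6.67, 6.62 and 7.15 against 6.52, 6.01 and 6.15, a change of -0.59 ± 0.21 (SE) that did not pass (adjusted p = 0.0780). Msr1 (-0.15 ± 0.13) and the lectin gene Clec10a (0.00 ± 0.10) overlapped between the groups, and Clec10a read 8.39 on all 3 WT-labelled arrays.

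Genes linked to lipid-laden macrophages did not pass in either direction, and 1 of 3 had an unadjusted p under 0.05. Trem2, a lipid-sensing receptor, read 6.85, 6.93 and 7.24 on the WT-labelled arrays and 6.65, 6.22 and 6.62 on the KO-labelled arrays. There was no overlap, and the change was -0.51 ± 0.18 (SE) (adjusted p = 0.0745). The tetraspanin gene Cd9, which many cell types use, had a change of 0.15 ± 0.12 (SE) and the glycoprotein gene Gpnmb one of -0.24 ± 0.15 (SE), both with overlap.

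Both chemokine receptor genes among the members fell. Cx3cr1, the fractalkine receptor of monocytes and of some resident macrophages, read 8.51, 8.76 and 8.78 on the WT-labelled arrays and 7.73, 7.22 and 8.05 on the KO-labelled arrays. All KO-labelled values lay below all WT-labelled ones. The means were 8.68 ± 0.15 (SD, n = 3) and 7.67 ± 0.42 (SD, n = 3), and Cx3cr1 fell by 1.02 (SE 0.23), to 0.494 of the WT-labelled level (adjusted p = 0.0395). Relative to the median probe set its change was -0.65, against -0.16 for Ccr2, -0.15 for Marco and -0.07 for Itgam. As deposited, the changes of all 4 lay between the 5th and 95th percentiles of olfactory receptor gene changes, -1.53 and -0.25. Ccr2 read 7.63, 7.83 and 7.73 against 7.33, 7.05 and 7.23 and fell by 0.53 (SE 0.13, adjusted p = 0.0420). Cd14, the coreceptor for lipopolysaccharide, overlapped between the groups, at a change of -0.17 ± 0.18 (SE). KO 2, the array with the lowest median, was the lowest array for all 4 members that fell.

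None of the 3 effector enzyme genes passed, and 1 had an unadjusted p under 0.05. Cybb, the catalytic subunit of the phagocyte NADPH oxidase, was 0.12 ± 0.11 (SE) higher with overlap. Arg1, arginase 1 of alternatively activated macrophages, was -0.56 ± 0.19 (SE) without overlap (adjusted p = 0.0676), and Nos2, the inducible nitric oxide synthase of classically activated ones, was -0.24 ± 0.15 (SE) with overlap.

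**Figure D2:**
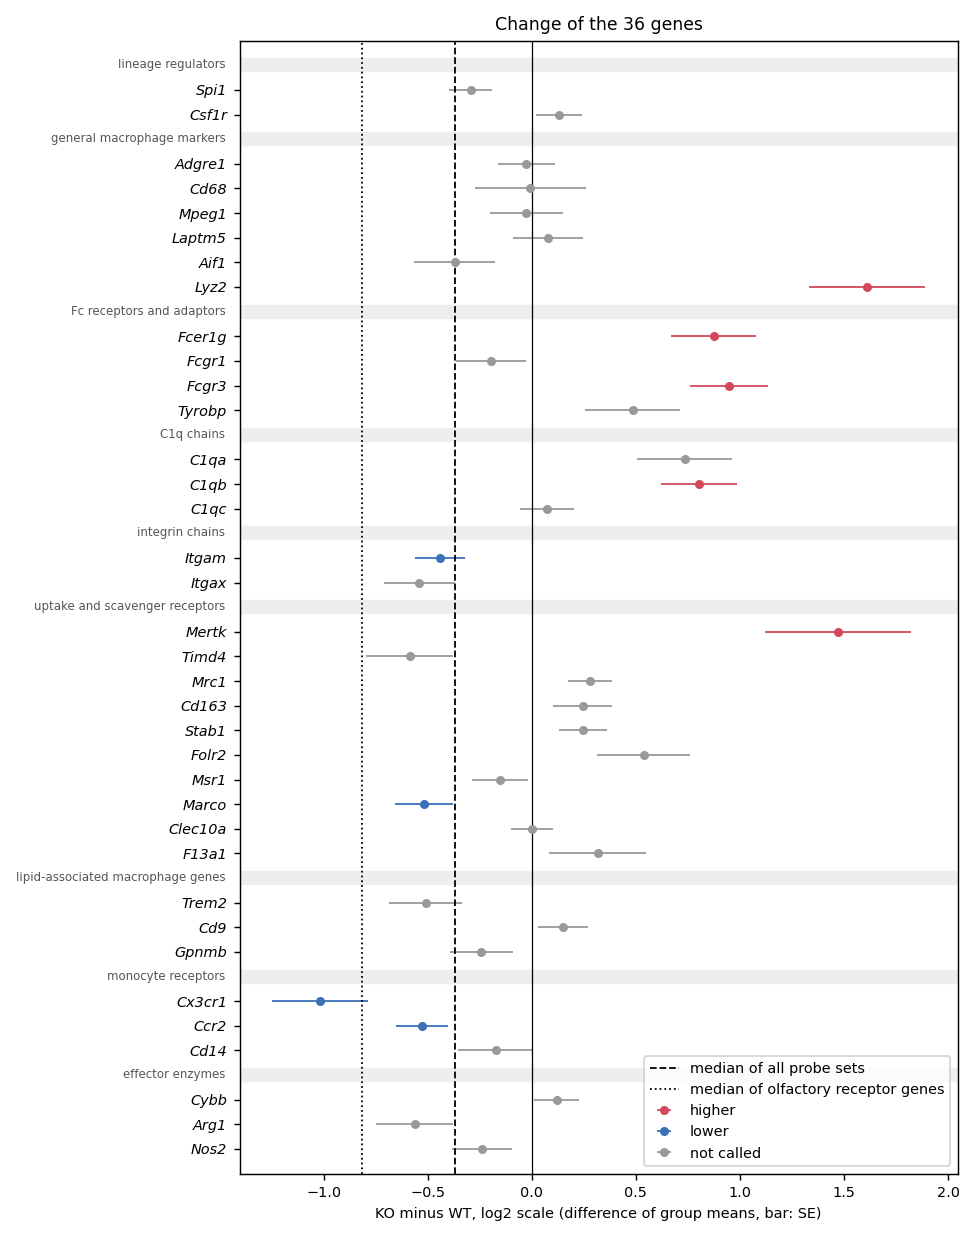
Difference of group means, KO minus WT, on the log2 scale (x axis, bars are SE from limma) for the 36 genes by role, coloured by call. The dashed line at -0.37 is the median of all probe sets and the dotted line at -0.82 that of olfactory receptor genes. Itgam, Marco and Ccr2 lie near the dashed line and Cx3cr1 beyond the dotted one. All 4 lie between the 5th and 95th percentiles of olfactory receptor gene changes, -1.53 and -0.25.

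Other genes of macrophage biology, listed by pathway with earlier results of these arrays known, gave a similar mixture. Of 74 such genes 68 were measured, and 4 rose and 6 fell, with a median change of -0.03 and 54 of 68 above the median probe set. The shares called, 5.88% higher and 8.82% lower, stand beside 5.32% and 15.6% of all probe sets. Among named protein-coding genes the shares were 10.7% and 10.2%. The rises thus lay near the share of all probe sets and below that of protein-coding genes. Both ligands of the CSF1 receptor overlapped between the groups, Csf1 at a change of -0.04 and Il34 at 0.02. None of 10 measured genes of the immunoreceptor signalling chain passed, and none of 4 measured partners of CYBB in the oxidase, against 3 and 0 at an unadjusted p under 0.05. The pan-leukocyte gene Ptprc, which encodes CD45, read 7.21, 7.04 and 7.11 against 7.01, 7.12 and 6.86, a change of -0.12 ± 0.12 (SE).

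In the uptake of dying cells, where MERTK acts, the transglutaminase gene Tgm2 rose. It read 7.94, 7.64 and 7.48 on the WT-labelled arrays and 8.79, 9.63 and 9.16 on the KO-labelled arrays, a rise of 1.51 ± 0.25 (SE) (adjusted p = 0.0354). The bridging protein genes Gas6 (0.15 ± 0.11), Pros1 (0.35 ± 0.10) and Mfge8 (0.51 ± 0.20) and the related receptor gene Axl (0.28 ± 0.12) were each higher on all KO-labelled arrays without passing, while the third receptor of the family, Tyro3, was -0.27 ± 0.13 (SE). The remaining gene of that list, the lipid-binding receptor gene Cd300lf, was -0.38 ± 0.19 (SE), with all KO-labelled values below all WT-labelled ones. Tgm2 and Mfge8 are also active in vessels and fat cells. Of 7 measured complement genes none passed and 2 had an unadjusted p under 0.05, among them C1s1. It encodes a protease that works with C1q, and it read 7.81, 7.37 and 7.53 against 8.50, 9.54 and 8.33 (change 1.22 ± 0.34, adjusted p = 0.0505).

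Maf, a transcription factor of resident macrophages that other cells also use, read 7.43, 7.77 and 7.65 against 8.50, 9.42 and 9.20 and rose by 1.42 ± 0.26 (SE) (adjusted p = 0.0354). Lipa, the lysosomal acid lipase gene, rose by 1.01 ± 0.24 (SE). Plin2, a lipid droplet coat gene of foam cells and adipocytes alike, rose by 3.02 ± 0.32 (SE), from 10.67, 10.18 and 9.71 to 13.03, 13.70 and 12.89. The 6 partner genes that fell were Cd84, Chil3, Cd53, Ciita, Tnf and Il6. Cd84, a leukocyte adhesion receptor gene, fell by 0.90 (adjusted p = 0.0361) and Chil3, a chitinase-like gene of activated macrophages, by 0.77 (adjusted p = 0.0382). The cytokine genes Tnf and Il6 fell by 0.60 and 0.48 (adjusted p = 0.0464 and 0.0386). Relative to the median probe set Cd84 and Chil3 changed by -0.54 and -0.41, and Tnf and Il6 by -0.23 and -0.11. The WT-labelled mean of Il6 was 6.06, near 5.92, the 5th percentile of the olfactory receptor genes. The tetraspanin gene Cd53 fell by 0.49 and Ciita, the master regulator of class II genes, by 0.45, or -0.12 and -0.08 relative to the median probe set. The class II genes H2-Aa, H2-Ab1 and H2-Eb1 overlapped between the groups, at changes of 0.02, 0.37 and 0.22.

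Other cells could carry some of these transcripts, and their part in the results was not tested. Counts of their markers are to be read against 15.6% of probe sets called lower and a median change of -0.37 over all of them. For named protein-coding genes these values were 10.2% and -0.18. Of 10 neutrophil markers, which bear on Lyz2 and Itgam, none was higher and 1 fell (Ly6g, by 0.79). Their mean signal spanned 7.12 to 7.27 where the label is WT and 6.55 to 6.91 where it is KO. Of 7 mast cell markers, which bear on Fcer1g, 4 fell, among them Cpa3 by 0.79, with means of 7.03 to 7.18 and 6.54 to 6.70. Of 8 dendritic cell markers, which bear on Itgax, 1 fell (Itgae, by 0.50). The neutrophil and dendritic lists, with median changes of -0.38 and -0.33, thus lay near the median of all probe sets and below that of protein-coding genes. Of 9 measured T and NK cell markers 3 fell and of 6 measured B cell markers 4 fell, with no member of either list called higher. The median change of these 5 lists lay between -0.33 and -0.57.

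Adipocyte and endothelial markers were higher on the KO-labelled arrays beside the members that rose. Of 10 adipocyte markers 7 rose and of 9 endothelial markers 8 rose. Over all probe sets 5.32% were called higher, and among named protein-coding genes 10.7%. The remaining endothelial marker, Vwf, was -0.08 ± 0.10 (SE), with all KO-labelled values below all WT-labelled ones. The adipocyte mean spanned 8.69 to 9.92 in the WT-labelled group and 11.49 to 12.65 in the KO-labelled group, and Adipoq read 9.80, 10.97 and 8.76 against 12.73, 13.01 and 12.57. Skeletal muscle markers averaged 6.93 to 7.04 on the WT-labelled arrays but 9.15 on KO 1, 11.07 on KO 2 and 6.90 on KO 3.

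**Figure D3:**
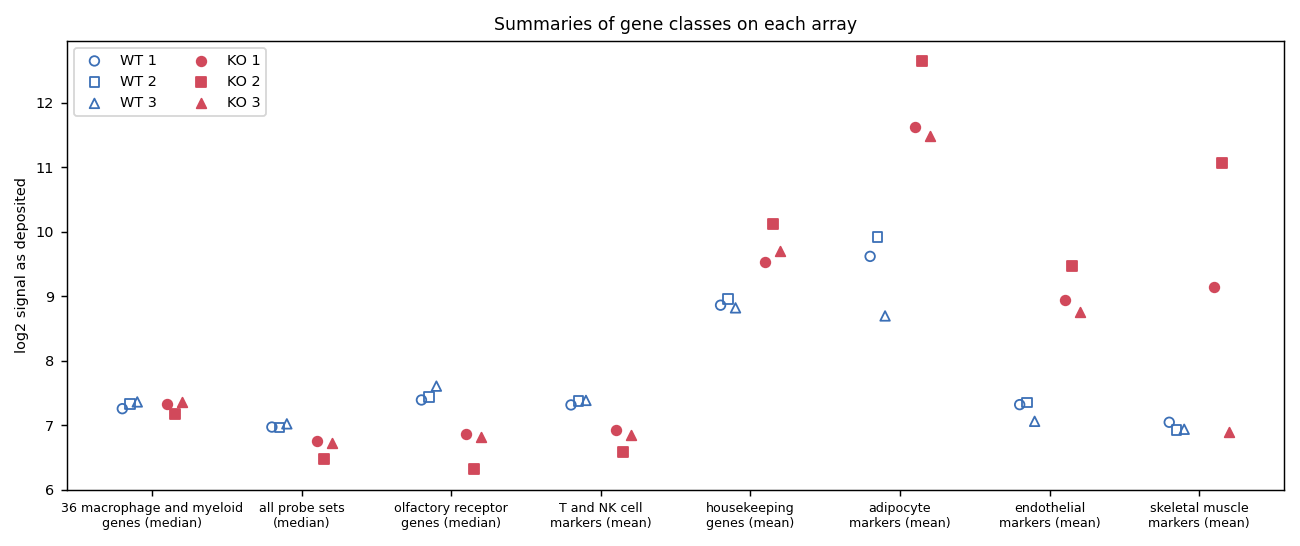
Log2 signal as deposited (y axis) of gene classes on each array, as a median or a mean over the class, with open symbols for WT and filled symbols for KO. The 36 macrophage and myeloid genes have overlapping medians, 7.26 to 7.36 on WT and 7.18 to 7.36 on KO arrays, while lymphocyte and olfactory genes lie lower and housekeeping, adipocyte and endothelial genes higher on KO arrays.

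The scaling of the arrays set the sign of many members' changes. As deposited 17 of 36 were above 0, against 27 after either quantile normalization or median centring and 3 after centring on housekeeping genes. Spi1, Adgre1 and Cd68 were among those that turned positive under quantile normalization and median centring, without passing. With quantile normalization 6 members were called higher and 1 lower, and with median-centred arrays 8 were called higher and none lower (19 members had an unadjusted p under 0.05 there). The share of all calls that were higher went from 25.4% as deposited to 64.6% and 61.2%. Lyz2, Mertk, Fcgr3, Fcer1g and C1qb were called higher under the deposited values and both of these scalings. Their rises ranged there from 0.80 for C1qb to 1.94 for Lyz2. Cx3cr1 kept a negative change in all of them, at -0.82 after quantile normalization (called) and -0.69 after median centring (not called, adjusted p = 0.0507). Of the 13 housekeeping genes, 6 were themselves called higher as deposited, and their changes ran from -0.28 to 2.66. When each array was centred on its housekeeping mean, none of the 36 was called higher and 26 were called lower, against 87.3% of all probe sets. Lyz2 and Mertk then stood at 0.71 and 0.57 and Fcgr3 at 0.04, while Fcer1g and C1qb turned to -0.03 and -0.10.

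**Figure D4:**
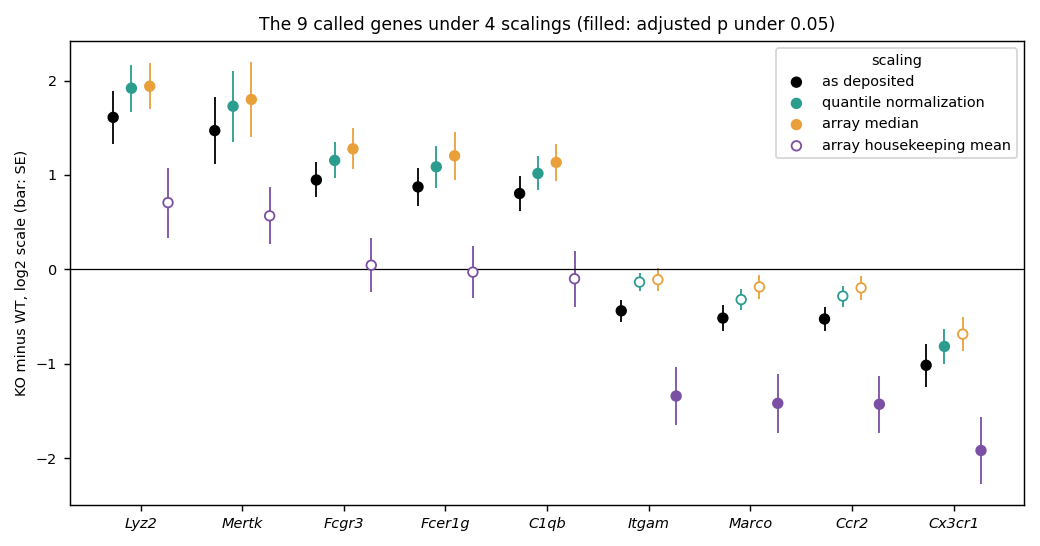
Change, KO minus WT, on the log2 scale (y axis, bars are SE) of the 9 called genes under 4 scalings of the arrays, filled where the limma adjusted p was under 0.05. Lyz2 and Mertk are above 0 and Cx3cr1, Ccr2, Marco and Itgam below 0 under each of the 4, while Fcer1g and C1qb fall just below 0 when arrays are centred on housekeeping genes.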

How the data were processed

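Arrays labelled WT and KO, 3 mice each, were compared. Each deposited value is the log2 signal of a probe set, made by the authors with Transcriptome Analysis Console, per the submitters' processing notes. Background correction, normalization, summary method and genome build: not given in the sources used here. The lowest value was 2.81 and the ceiling 19.93, and no detection call or scan date was used here. GEO's annotation, with repeats removed and old symbols updated through RefSeq (GRCm38.p6), gave 31258 probe sets 1 gene symbol, 1492 several and 33206 none.

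limma 3.58.1 (lmFit, eBayes) in R 4.3.3 compared the groups on all 65956 probe sets, with Benjamini-Hochberg adjustment over all of them and calls at an adjusted p under 0.05. The procedure was tested on simulated arrays. Python 3.11.15, pandas 2.3.3 and matplotlib 3.10.9 prepared tables and plots. Members and lists were chosen with earlier results of these data known. The rule for named genes took every member, from each other list at most 4 called genes with the smallest p, and always Tfg, Ptprc, Itgb2 and Adipoq. Cd53, Lyz1, Vwf and the other partner genes that were not called fall outside it and were chosen after their values were seen. The number of arrays limits the precision, and 16 alternatives were tried.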

Additional observations from a re-analysis of the deposited data

How the results depend on the processing

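On the deposited values 5 members were called higher and 4 lower, with 4 and 6 of the partner genes. Quantile normalization left 1 member and 1 partner gene called lower and moved the members' median change to 0.24. Centring on array medians gave 8 members and 11 partner genes higher, 0 and 1 lower, and a median of 0.33 (19 members at an unadjusted p under 0.05). Centring on housekeeping means gave 0 members and 1 partner gene higher, 26 and 50 lower, and a median of -0.91 (27 members at an unadjusted p under 0.05). It turned 14 of the 17 positive changes negative: Csf1r (-0.77), Laptm5 (-0.83), Fcer1g (-0.03), Tyrobp (-0.42), C1qa (-0.17), C1qb (-0.10), C1qc (-0.83), Mrc1 (-0.62), Cd163 (-0.66), Stab1 (-0.66), Folr2 (-0.37), F13a1 (-0.59), Cd9 (-0.75) and Cybb (-0.78). Quantile normalization and median centring turned 9 negative changes positive, none of them called: Spi1 (0.06 and 0.037), Adgre1 (0.27 and 0.30), Cd68 (0.21 and 0.32), Mpeg1 (0.18 and 0.30), Fcgr1 (0.13 and 0.13), Msr1 (0.18 and 0.18), Gpnmb (0.038 and 0.087), Cd14 (0.14 and 0.16) and Nos2 (0.11 and 0.09). By construction, centring on medians or housekeeping means shifts an array as a whole, while quantile normalization gives all arrays the same distribution of values. Array weights gave 8 members and 10 partner genes higher, a median of 0.079, and positive changes for Adgre1 (0.083) and Cd68 (0.28). Leaving out dim probe sets kept 30 members and 44 of the 68 partner genes in the test. It gave 6 partner genes higher and 3 lower. Adjusting over probe sets with 1 symbol gave 8 partner genes higher. With the replicate number as a block 3 members were higher and 1 lower, with 2 partner genes lower. Same-numbered arrays correlated in their deviations at 0.00153, 0.205 and 0.139. WT 1 correlated more with KO 2 (0.0195) and WT 3 more with KO 1 (0.171). Correlations this weak cannot settle whether same-numbered arrays share more than a number. Leaving out 1 array at a time gave 0 to 6 members higher and 0 to 1 lower, 0 to 7 partner genes higher and 0 to 5 lower, and medians from -0.043 to 0.086. The changes of Adgre1 (-0.10 to 0.09), Cd68 (-0.21 to 0.29), Mpeg1 (-0.16 to 0.085), Laptm5 (-0.05 to 0.18) and C1qc (-0.027 to 0.13) took both signs there. With trend, or trend and robust, Marco alone lost its call among the members, and averaging the probe sets of each gene changed none. The cause of these shifts was not tested. Without detection calls, depth above background limits every level given.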

Other observations

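Within the KO-labelled group, KO 1 alone gave the highest of the 3 values for 27.8% of the members, KO 2 for 16.7% and KO 3 for 52.8%, against 42%, 20.3% and 35.1% of all probe sets. For the partner genes these shares were 22.1%, 32.4% and 44.1%. KO 1 gave the lowest value for 41.7% of the members, KO 2 for 52.8% and KO 3 for 5.56%, against 18.4%, 61.6% and 18% of all probe sets. For the partner genes they were 25%, 51.5% and 22.1%. Of the members that rose, Lyz2 was highest on KO 1, Mertk and Fcer1g on KO 2, and Fcgr3 and C1qb on KO 3. Each array is 1 mouse, and no test was made.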
